A study of Mus musculus with 64 samples.

Results

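The transcriptional response to benzo[a]pyrene (BaP) was examined in activated bone marrow-derived macrophages (BMMs) that lack the aryl hydrocarbon receptor (AhR). Of the 64 libraries in the series, 16 were chosen by their titles: 4 BaP and 4 vehicle libraries from Ahr-/- BMMs at 3 h and the same at 20 h. Marrow from femur and tibia of 4 Ahr-/- mice was differentiated in medium holding macrophage colony-stimulating factor from L929 cells. The Ahr-/- line carries a germline deletion in the C57BL/6 background and had been crossed back in-house to C57BL/6JRj, the strain of the Ahr+/+ mice, and all mice were 8 to 12 weeks old. BMMs received 1 µM BaP in 0.01% DMSO or 0.01% DMSO alone for 6 h. All 16 cultures were then given 10000000 heat-killed Salmonella Enteritidis (hk S.E.) per ml, and RNA was taken 3 h or 20 h post administration. The question was which transcripts respond to BaP when its receptor is missing. Matching Ahr+/+ libraries, again 4 for each treatment and time, were used for comparison. In places, activated Ahr-/- libraries given indole-3-carbinol (I3C), a low-affinity AhR ligand, in place of BaP were also compared. Resting Ahr-/- libraries, which received DMSO and no hk S.E., were used in the same way. All 64 libraries entered the statistical fit.

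BaP is a polycyclic aromatic hydrocarbon and a high-affinity AhR ligand. On ligand binding, AhR leaves its chaperone complex, enters the nucleus and pairs with Arnt at DNA elements with the core GCGTG. The classical targets include Cyp1a1 and Cyp1b1, which oxidise BaP to reactive metabolites, and Ahrr and Tiparp, which restrain AhR signalling. In macrophages AhR is also known as a modulator of the response to bacterial products.

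Total gene counts ranged from 17772548 to 50644601 per Ahr-/- library, with a median of 25618877. The Ahr gene itself still had 167 to 297 counts in each Ahr-/- library at 3 h and 568 to 1525 at 20 h. A count over the whole gene therefore does not check the deletion. All 10 macrophage markers were measured and together held 21900 to 34900 CPM, counts scaled to library size, in the 16 libraries. Neutrophil markers summed to 24.6 to 102 CPM, and T and NK cell markers to at most 4.88 CPM with Ncr1 at 0. Erythroid and megakaryocyte markers summed to 9.69 to 63.6 CPM, with the 4 globin genes Hbb-bs, Hbb-bt, Hba-a1 and Hba-a2 at 0. No marker of these lists was called for BaP at either time by edgeR or by DESeq2. Ahr-/- replicates 1 and 2 stood apart from replicates 3 and 4 in several genes whatever the treatment, so BaP was compared with DMSO within each replicate number. In bulk libraries, fewer cells with a transcript and less of it per cell cannot be told apart.

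Few genes passed the test for BaP in Ahr-/- BMMs. With edgeR's quasi-likelihood test, 16 of 14537 genes (0.11%) were differentially expressed at 3 h with a Benjamini-Hochberg adjusted p below 0.01. Of these, 3 genes (0.0206%) rose and 13 (0.0894%) fell. After correction for transcript GC content, 1 gene rose and 18 fell. At 20 h, 5 genes (0.0344%) were differentially expressed and all 5 fell. All 5 and 11 of the 13 that fell at 3 h were processed pseudogenes. DESeq2 called 37 and 13 genes. At an unadjusted p under 0.05 there were 2741 genes (18.9%) at 3 h and 505 (3.47%) at 20 h. The counts rest on the pairing and on single mice: without the replicate block 4 and 2 genes were called, and without replicate 2 none was called at either time, by edgeR, with 1411 and 698 genes at an unadjusted p under 0.05. Without replicates 1, 3 or 4, 6, 5 and 2 genes were called at 3 h and 7, 0 and 0 at 20 h.

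No member of the classical AhR battery passed the test in these cells. Of 16 AhR target genes, 8 had enough counts to be tested, and edgeR and DESeq2 called 0 of them at 3 h and 0 at 20 h. Tiparp, an ADP-ribosyltransferase, was the single one with an unadjusted p under 0.05 at 3 h, and none was at 20 h, against 8.06% of all genes lower at 3 h and 2.35% at 20 h. The median log2 fold change (log2 FC) of the 8 was -0.20 at 3 h and -0.02 at 20 h, against 0.01 and 0.00 over all genes. At 3 h it was -0.07 with a correction for GC content, and within the 4 pairs the median was 0.12, -0.22, -0.03 and -0.01. For Ahrr, the AhR repressor, DMSO libraries held 0.125, 0.275, 0.221 and 0.319 CPM at 3 h, and BaP libraries held 0.204, 0.246, 0 and 0.285 CPM. At 20 h the values were 0.728, 0.787, 0.626 and 0.81 CPM with DMSO and 0.656, 0.77, 1.03 and 1.18 CPM with BaP. The groups overlapped at both times, and the log2 FC of Ahrr was -0.32 ± 0.49 (SE) and 0.32 ± 0.21. In Ahr+/+ BMMs, Ahrr went from 0.562, 0.566, 0.346 and 0.582 CPM to 4.18, 6.96, 4.79 and 5.56 CPM at 3 h, with no overlap. Nqo1, a quinone reductase, had a log2 FC of 0.17 at 3 h in Ahr-/- BMMs with a 95% interval of -0.16 to 0.50, and of 0.07 at 20 h with an interval of -0.29 to 0.44. Tiparp held 251, 237, 406 and 405 CPM with DMSO and 163, 149, 351 and 380 CPM with BaP at 3 h. It was lower in all 4 pairs, its log2 FC was -0.38 ± 0.11, and with an adjusted p of 0.0904 by edgeR it did not pass. Serpinb2 was detected in replicates 1 and 2 at 6.79 and 10.7 CPM with DMSO and 5.5 and 8.56 CPM with BaP at 3 h. Replicates 3 and 4 held 0 and 0 CPM with DMSO and 0 and 0.0475 CPM with BaP. Ugt1a6a had 1, 2, 22 and 2 raw counts with DMSO and 4, 1, 18 and 21 with BaP at 3 h. Scin had 1, 0, 0 and 0 raw counts with DMSO and 1, 2, 1 and 1 with BaP at 20 h. The log2 FC of the 8 ran from -0.39 to 0.93 at 3 h and from -0.17 to 1.64 at 20 h, with 5 negative at each time.

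Cyp1a1, the classical marker of AhR activation, was not testable. With BaP, Ahr-/- libraries held 0 raw counts of it in all 4 replicates at 3 h, and 0, 0, 1 and 0 at 20 h. With DMSO they held 0, 2, 0 and 0 at 3 h, and 0, 0, 0 and 4 at 20 h. Cyp1b1 had 0, 0, 2 and 1 counts with BaP at 3 h and 0, 4, 0 and 1 at 20 h, with 0 in every DMSO library. In Ahr+/+ BMMs at 20 h, Cyp1b1 had 31, 3, 16 and 15 counts with BaP and 2, 1, 3 and 0 with DMSO. Changes in these enzymes could not be detected in Ahr-/- BMMs at this depth.

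Among protein-coding genes, edgeR called 4 at 3 h and DESeq2 17. At 20 h edgeR called none, with 261 at an unadjusted p under 0.05, and DESeq2 called 0. Ifi214 (chromosome 1, 173519717 to 173535957, minus strand, GRCm38) belongs to the interferon-inducible PYHIN family. It held 12, 16.3, 23.7 and 24.9 CPM with DMSO and 6.65, 6.74, 15.9 and 15.7 CPM with BaP at 3 h. Ifi214 was lower with BaP in all 4 pairs, and the groups overlapped, with replicates 1 and 2 below 3 and 4 under both treatments. Its log2 FC was -0.83 ± 0.13 (SE, adjusted p = 0.000484, edgeR), and at 20 h it was -0.32 ± 0.15 and not called. Gbp9 (chromosome 5, 105077630 to 105139539, minus strand) encodes an interferon-inducible guanylate-binding protein. Gbp9 held 143, 96.8, 225 and 173 CPM with DMSO and 88.4, 71.2, 169 and 137 CPM with BaP. It fell in every pair, by 0.47 ± 0.09 on the log2 scale (adjusted p = 0.00983, edgeR), and at 20 h its log2 FC was -0.09 ± 0.10. Ifi214 has near-identical family copies and Gbp9 overlaps Gbp4 on the same strand, so the counting could have left out some of their reads.

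The coding genes that rose were Rpl29 and Tufm, both part of protein synthesis. Rpl29 (chromosome 9, 106429454 to 106431568, plus strand), a protein of the large cytosolic ribosomal subunit, held 139, 113, 105 and 108 CPM with DMSO and 184, 186, 131 and 130 CPM with BaP at 3 h. It was higher in every pair, with a log2 FC of 0.43 ± 0.09 (adjusted p = 0.0089, edgeR). Tufm (chromosome 7, 126487361 to 126490731, plus strand), the mitochondrial translation elongation factor Tu, held 45.1, 42.4, 37.9 and 35.3 CPM with DMSO and 56.4, 60.4, 44.2 and 42.6 CPM with BaP. Its log2 FC was 0.33 ± 0.06 (adjusted p = 0.00741, edgeR). The groups overlapped for both genes. The log2 FC at 20 h was 0.21 ± 0.08 for Rpl29 and 0.09 ± 0.06 for Tufm, and neither was called. Over 15 alternative settings at 3 h Ifi214 passed in 10, Gbp9 and Tufm in 5 each and Rpl29 in 4. The log2 FC ranged over them from -0.93 to -0.63 for Ifi214, from -0.51 to -0.35 for Gbp9, from 0.20 to 0.37 for Tufm and from 0.24 to 0.48 for Rpl29.

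**Figure D1:**
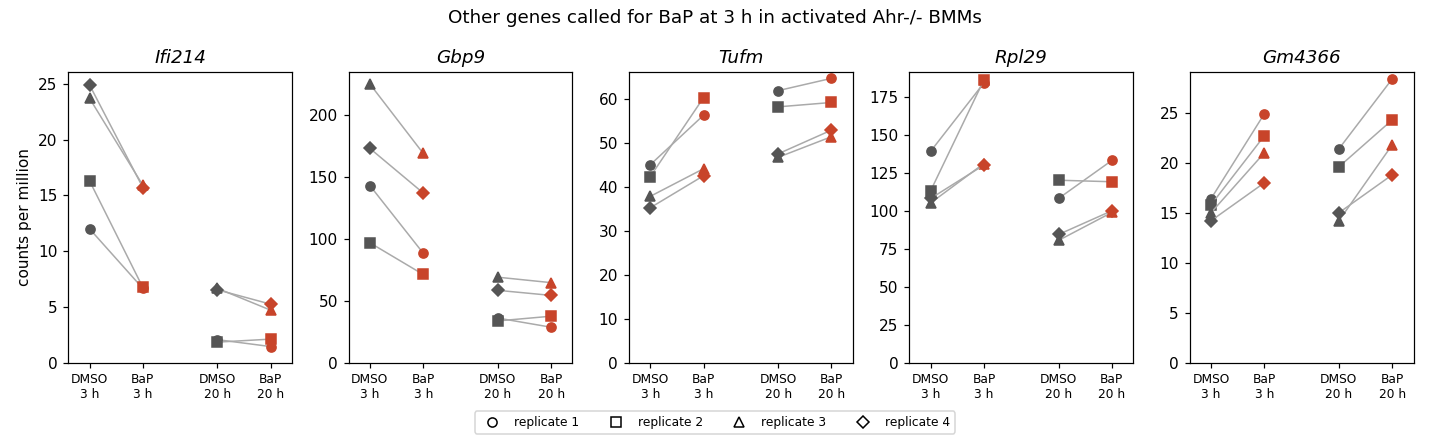
CPM (vertical axis, linear, from 0) of Ifi214, Gbp9, Tufm, Rpl29 and the pseudogene Gm4366 in each activated Ahr-/- library, with lines joining the DMSO and BaP libraries of 1 replicate number. At 3 h all 4 lines fall for Ifi214 and Gbp9 and rise for the other 3 genes, while at 20 h the log2 FC of Ifi214 is -0.32.

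Most genes called by edgeR were processed pseudogenes, copies of spliced transcripts that were inserted back into the genome. DESeq2 called 19 of them among its 37 genes at 3 h and 13 of 13 at 20 h. By edgeR, 14 of them fell at either time: 11 at 3 h, 5 at 20 h and 2 of these, Gm9512 and Gm5491, at both times. The closest coding match was a ribosomal protein gene for 8 of the 15 that fell or rose, and for 423 of the 1318 tested with a match. Gm9512 resembles Eef1a1, the translation elongation factor, with 97% identity, and Gm5491 resembles Rpl15, a ribosomal protein gene, with 97.2% identity. A stretch of each is printed beside the coding sequence of its match. Reads can be told from those of the match only where the bases differ. Each stretch is the window of 120 bases with the most differences away from alignment gaps, so it is not typical of the copy. Identity is 93.3% in the window of Gm9512 and 95% in that of Gm5491. The differing bases are in capitals, the coordinates are those of GRCm38, and the sequence is taken from the annotation's transcripts (GENCODE M21).
Gm9512, bases 333 to 452 of the transcript, chr13:15118964-15119083, plus strand: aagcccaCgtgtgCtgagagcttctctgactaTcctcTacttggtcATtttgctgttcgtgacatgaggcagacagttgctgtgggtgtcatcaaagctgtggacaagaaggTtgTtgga
Eef1a1, bases 1222 to 1341 of the coding sequence: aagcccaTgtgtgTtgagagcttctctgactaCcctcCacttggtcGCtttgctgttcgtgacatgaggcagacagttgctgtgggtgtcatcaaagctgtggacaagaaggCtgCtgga
Gm5491, bases 41 to 160 of the transcript, chr17:8384501-8384620, minus strand: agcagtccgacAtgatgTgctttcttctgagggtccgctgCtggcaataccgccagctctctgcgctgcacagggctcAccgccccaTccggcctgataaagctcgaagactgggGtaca
Rpl15, bases 41 to 160 of the coding sequence: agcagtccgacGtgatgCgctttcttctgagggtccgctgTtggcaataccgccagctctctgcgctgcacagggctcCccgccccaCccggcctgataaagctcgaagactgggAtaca
With the base of the match first and positions counted from 1 at the 5′ end of the window, Gm9512 differed at 8 places, T8C, T14C, C33T, C38T, G47A, C48T, C113T and C116T. Gm5491 differed at 6, G12A, C18T, T41C, C79A, C88T and A116G.

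Gm9512 held 12.9, 23.6, 13.5 and 12.8 CPM with DMSO and 2.92, 3.25, 2.47 and 2.71 CPM with BaP at 3 h. At 20 h it held 5.67, 7.95, 6.18 and 9.42 CPM with DMSO and 1.75, 1.34, 2.2 and 1.71 CPM with BaP. All BaP libraries were below all DMSO libraries at both times, with a log2 FC of -2.45 ± 0.36 (adjusted p = 0.000125, edgeR) and -2.07 ± 0.35 (adjusted p = 0.00299, edgeR). Gm5491 showed the same order, with 2.37, 1.69, 2.03 and 1.98 CPM against 0.271, 0.344, 0.376 and 0.38 CPM at 3 h. At 20 h Gm5491 held 1.36, 1.84, 1.36 and 1.25 CPM with DMSO and 0.281, 0.143, 0.212 and 0.315 CPM with BaP. It fell by 2.55 ± 0.45 (adjusted p = 0.00242, edgeR) and by 2.53 ± 0.40 (adjusted p = 0.00174, edgeR) on the log2 scale. The matches did not pass: Eef1a1 had a log2 FC of 0.13 and 0.08, and Rpl15 one of 0.17 and 0.06.

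Among the called genes, the largest fall at 3 h was that of Gm5388, an Actg1 copy of 92.5% identity on chromosome X (51218877 to 51219993, minus strand). Gm5388 held 6.42, 10.8, 3.22 and 2.81 CPM with DMSO and 0.679, 0.836, 0.645 and 0.523 CPM with BaP, and its log2 FC was -3.05 ± 0.44 (adjusted p = 0.000125, edgeR). Gm12003, another Actg1 copy, held 7.85, 17, 4.06 and 4.54 CPM and 2.51, 2.41, 1.77 and 0.998 CPM. For Gm8865, an Ifitm2 copy, the values were 2.06, 2.84, 2.12 and 2.68 CPM with DMSO and 0.611, 0.295, 0.43 and 0.333 CPM with BaP. These 3 had no overlap between the groups at 3 h, as 2.8% of all genes had none.

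Gm10029 (Rpl35a copy) fell by 2.83 ± 0.52, Gm8865 by 2.59 ± 0.46 and Gm12003 by 2.02 ± 0.40 on the log2 scale. AC166779.2 (Rpl5 copy), Rpl17-ps9, Gm14639 (Tra2b copy) and Tpt1-ps6 fell by 1.39 to 1.95. Rpl17-ps9, which shares 99.6% of its bases with Rpl17, held 6.54, 6.41, 5.2 and 5.69 CPM with DMSO and 1.63, 1.72, 2.26 and 1.33 CPM with BaP at 3 h. Gm14639, by contrast, had 0.127, 0.225, 0.147 and 0.258 CPM with DMSO and 0.406, 0.114, 0.106 and 0.177 CPM with BaP at 20 h, where its groups overlapped and its log2 FC was -0.02 ± 0.35.

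The other called pseudogenes at 20 h were Gm7434, a copy of Rpl32, and the Rpl7a copies Rpl7a-ps7 and Rpl7a-ps14. Gm7434 held 0.696, 0.675, 0.478 and 0.589 CPM with DMSO and 0.188, 0, 0.0531 and 0.0788 CPM with BaP, with a log2 FC of -2.91 ± 0.52 (adjusted p = 0.00544, edgeR). Rpl7a-ps7 held 1.27, 1.24, 0.368 and 0.938 CPM against 0.344, 0.257, 0.133 and 0.0985 CPM, and Rpl7a-ps14 held 0.696, 0.75, 0.552 and 0.478 CPM against 0.125, 0.0571, 0.186 and 0.0985 CPM. Neither overlapped between the groups, as 169 genes (1.16%) did not at 20 h. Below the threshold came Gm17383, AC166779.2, Gm47655, Rpl30-ps11 and Gm6378, with log2 FC from -2.39 to -1.42 and adjusted p from 0.0106 to 0.02 by edgeR.

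1 processed pseudogene rose. Gm4366, a copy of Eef1g with 99.6% identity, held 16.4, 15.8, 15 and 14.2 CPM with DMSO and 24.9, 22.7, 21.0 and 18.0 CPM with BaP at 3 h, with no overlap between the groups. Its log2 FC was 0.49 ± 0.09 (adjusted p = 0.00679, edgeR). At 20 h it was 0.41 ± 0.09, with an adjusted p of 0.0207 by edgeR that did not pass. Eef1g itself had a log2 FC of 0.15 at 3 h and 0.03 at 20 h.

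**Figure D2:**
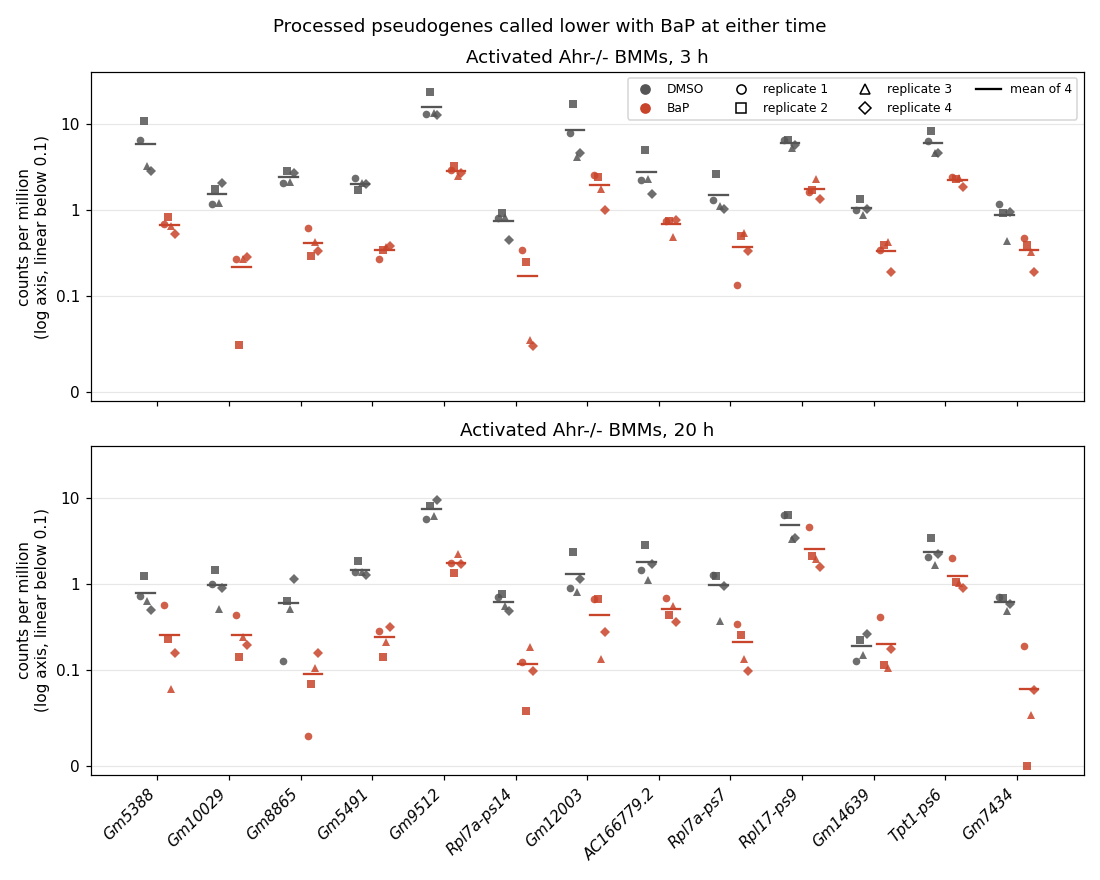
CPM (vertical axis, logarithmic and linear below 0.1) of 13 processed pseudogenes called lower with BaP at either time, in each activated Ahr-/- library at 3 h (top) and 20 h (bottom), with a bar at the mean of 4. At 3 h the BaP libraries lie below the DMSO libraries for 12 of the 13 genes, and at 20 h for 8. Over all genes 2.8% and 1.16% had no overlap between the groups, in either direction. The 13 were chosen from these same libraries, so their separation was partly fixed by the choice.

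The 14 pseudogenes were also described in other libraries of the series, which shared the model and the filter on low counts with the contrast that chose them. In Ahr+/+ BMMs at 20 h, BaP gave negative values for 14 of the 14 with a median log2 FC of -1.96, and 10 were called lower by edgeR, where 2.15% of all genes were. At 3 h in Ahr+/+ BMMs, 13 were negative with a median of -0.86. None of the 14 was called there by edgeR, as 0.0% of all genes were called lower, and 9 had an unadjusted p under 0.05 where 2.3% of all genes did in that direction, while DESeq2 was not run for that contrast. The median CPM of the 14 in Ahr+/+ BaP libraries at 3 h was 0.403, 0.656, 0.479 and 2.92, so replicate 4 stood apart from the other 3, against 1.63 to 2.04 with DMSO. Over the pairs of replicates 1 to 3 alone the median log2 difference was -1.76. Indole-3-carbinol (I3C), the low-affinity ligand of the series at 10 µM, gave medians of -1.12 and -0.70 in Ahr-/- BMMs at 3 h and 20 h, and shared the DMSO libraries with BaP.

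The median CPM of the 14 in Ahr-/- BMMs was 2.21 to 3.87 with DMSO, 0.451 to 0.645 with BaP and 1.1 to 1.31 with I3C at 3 h. It was 1.3 to 2.46 in resting cells that received DMSO and no hk S.E. At 20 h the ranges were 0.718 to 1.65 with DMSO, 0.199 to 0.5 with BaP, 0.406 to 1.06 with I3C and 1.58 to 1.98 in resting cells. At 20 h the ranges of BaP and I3C overlapped. The 14 were chosen for lower values with BaP than with DMSO in these Ahr-/- libraries, so the gap between DMSO and BaP was part of the choice. The choice also favoured high values in the activated DMSO libraries, which are set here beside I3C and resting cells.

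Processed pseudogenes had a negative median over all that were tested. Of 9940 in the files, 1319 passed the filter on low counts, with a median log2 FC of -0.19 at 3 h and -0.13 at 20 h. Negative values made up 67.6% and 66.3%, and 249 and 182 were lower at an unadjusted p under 0.05 against 39 and 17 higher. Over all genes 8.06% and 2.35% were lower at that p, and 10.8% and 1.12% were higher. Pairs did not share this: at 3 h the class median was 0.00, -0.51, -0.07 and -0.17 in the 4 pairs, and 20 h gave 0.08, -0.39, 0.00 and -0.22, with replicate 2 the lowest at both times. The median at 3 h was -0.29 for the 686 genes with a mean log2 CPM under 0, -0.17 for 541 genes from 0 to 3 and 0.01 for the 92 at 3 or more. By identity to the closest coding transcript it was -0.48 below 90% (52 genes), -0.40 from 90% to 95% (208 genes), -0.28 from 95% to 98% (464 genes) and -0.05 at 98% or more (594 genes). The median of the matches was 0.11. Other gene types had negative medians at 3 h too, -0.22 over 48 unprocessed pseudogenes, -0.22 over 182 loci of the annotation's provisional class TEC, -0.20 over 25 sense-intronic and -0.09 over 309 intergenic long non-coding RNAs. Protein-coding genes had a median of 0.02.

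Gene lists for pathways that BaP or hk S.E. might touch had small medians and almost no called member. Over 50 interferon-stimulated genes the median log2 FC at 3 h was -0.12, with 12 positive and 38 negative. Of these, 10 were lower and 0 higher at an unadjusted p under 0.05, where 8.06% and 10.8% of all genes were, and edgeR and DESeq2 called 0. Ifi214 and Gbp9 were not in this list. Iigp1, an interferon-inducible GTPase of cell-autonomous defence, held 138, 94.5, 275 and 312 CPM with DMSO and 98.9, 59.3, 209 and 253 CPM with BaP. It was lower in all 4 pairs with a log2 FC of -0.46 ± 0.13 (adjusted p = 0.0977, edgeR). Ifih1, the RNA sensor MDA5, and Trim30a had -0.29 ± 0.09 and -0.31 ± 0.10. The chemokine Cxcl9 held 112, 74.5, 223 and 209 CPM and 78.7, 56.9, 182 and 160 CPM, with a log2 FC of -0.39 ± 0.14 (adjusted p = 0.145, edgeR). At 20 h the list's median was -0.01, with 0 called by either tool and 0 at an unadjusted p under 0.05, where 3.47% of all genes were.

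Toll-like receptors, which recognise microbial patterns, were listed with co-receptors and adaptors such as Cd14 and Myd88. The 14 genes had a median of -0.15 at 3 h, with 0 called by either tool. With a correction for GC content the median was -0.10. Of the 14, 5 were lower and 1 higher at an unadjusted p under 0.05, where 8.06% and 10.8% of all genes were. Tlr3, the sensor of double-stranded RNA, held 122, 100, 180 and 170 CPM with DMSO and 83.3, 72.5, 147 and 150 CPM with BaP. Tlr7 held 253, 260, 408 and 388 CPM and 176, 177, 329 and 367 CPM. Both were lower in every pair, with a log2 FC of -0.36 ± 0.11 and -0.36 ± 0.14. Cytokine genes had a median of -0.02 over 21 genes at 3 h, with 0 called by either tool. Of the 21, 5 were lower and 2 higher at an unadjusted p under 0.05, against the same 8.06% and 10.8%. The log2 FC at 3 h was -0.24 ± 0.09 for Tnfsf15, -0.25 ± 0.09 for Il18 and 0.24 ± 0.09 for Ebi3. Il10 had a log2 FC of -0.04 ± 0.16 at 3 h and 0.03 ± 0.13 at 20 h. Among 21 chemokine genes at 20 h, 3 were higher and 1 lower at an unadjusted p under 0.05, where 1.12% and 2.35% of all genes were, with 0 called by either tool. Cxcl5, a neutrophil attractant, held 0.19, 0.187, 0.147 and 0.276 CPM with DMSO and 0.719, 0.428, 0.345 and 0.374 CPM with BaP (log2 FC 1.12 ± 0.40, adjusted p = 0.894, edgeR).

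Antioxidant genes under NRF2, glycolytic genes and cytosolic ribosomal protein genes were on the higher side at 3 h. Of 24 NRF2 genes 8 were higher at an unadjusted p under 0.05 and 0 lower, with a median of 0.13, where 10.8% of all genes were higher. Hmox1, which degrades haem, held 206, 222, 207 and 223 CPM with DMSO and 250, 286, 246 and 233 CPM with BaP. The groups did not overlap, as they did not for 2.8% of all genes, and the log2 FC was 0.24 ± 0.07 (adjusted p = 0.111, edgeR). Of 25 glycolysis and HIF-1 genes 10 were higher, with a median of 0.15, among them Gpi1 (0.24 ± 0.08) and Pkm (0.22 ± 0.08), both glycolytic enzymes. Neither tool called a member of these lists. Of 83 ribosomal protein genes 76 had positive values and 50 were higher at an unadjusted p under 0.05, against the same 10.8%, with a median of 0.16, and Rpl29 was the one called. At 20 h the medians of the 3 lists were 0.07, 0.03 and 0.00.

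Among the stress lists, Herpud1 came closest to the threshold. Herpud1, of endoplasmic reticulum-associated degradation, held 31.0, 40.5, 14.6 and 13.6 CPM with DMSO and 45.1, 58.6, 20.1 and 18.6 CPM with BaP at 3 h. It was higher in each pair while replicates 1 and 2 lay above 3 and 4, and its log2 FC of 0.50 ± 0.11 had an adjusted p of 0.0162 by edgeR. Over the 28 genes of the unfolded protein and amino acid response the median was 0.08, with 0 called by edgeR and 1 called by DESeq2. Of the 28, 5 were higher and 1 lower at an unadjusted p under 0.05, where 10.8% and 8.06% of all genes were. The co-chaperone Bag3 held 42.6, 43.2, 32.4 and 30.2 CPM with DMSO and 57.0, 59.7, 36.4 and 37.2 CPM with BaP, with a log2 FC of 0.34 ± 0.09 (adjusted p = 0.0492, edgeR). The p53 target list had a median of 0.05, with 2 of 24 higher at an unadjusted p under 0.05, where 10.8% of all genes were, and 0 called by either tool. Trp53 itself held 105, 100, 74.8 and 76.0 CPM with DMSO and 120, 142, 86.7 and 90.6 CPM with BaP (log2 FC 0.29 ± 0.08, adjusted p = 0.0819, edgeR). DNA repair genes had a median of 0.10 with 2 of 24 higher and 2 lower, and genes of xenobiotic transport and conjugation one of 0.08 with 5 of 26 higher and 1 lower, where 10.8% and 8.06% of all genes were. These 2 lists had 0 called by either tool.

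The respiratory chain genes of the mitochondrial genome had the lowest median of the lists at 3 h, -0.31 over 12 genes, with 0 called by either tool. Of the 12, 5 were lower at an unadjusted p under 0.05, where 8.06% of all genes were. mt-Nd5 had a log2 FC of -0.43 ± 0.18 and mt-Cytb of -0.36 ± 0.14. Counts on all genes of the mitochondrial genome took 0.607% to 1.23% of the BaP libraries and 0.882% to 1.38% of the DMSO libraries, and in each of the 4 pairs the BaP library had the smaller share. At 20 h the share was smaller in 3 pairs, and the list's median was -0.01.

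**Figure D3:**
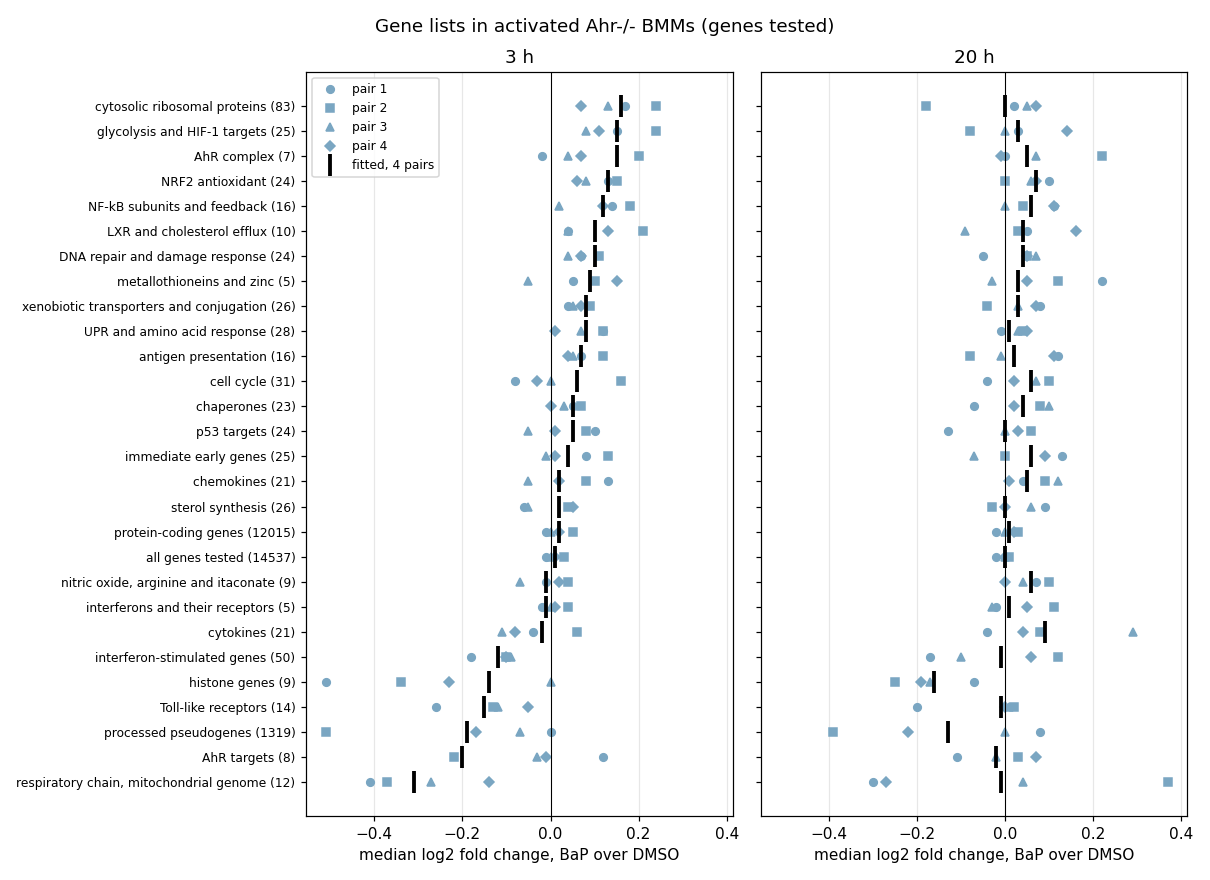
Median log2 fold change (BaP over DMSO, horizontal axis) of each gene list in activated Ahr-/- BMMs at 3 h and 20 h, with 1 point per pair of libraries and a bar for the fit over the 4 pairs; numbers in brackets are genes tested. The bars run from -0.31 to 0.16 at 3 h and from -0.16 to 0.09 at 20 h.

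Transcript GC content moved with BaP at 3 h. Among 8294 protein-coding genes with a mean log2 CPM above 3, the median log2 FC was -0.14 in the quartile of lowest GC content, then -0.03 and 0.07, and 0.15 in the highest. Each of the 4 pairs had this order. At 20 h the medians were -0.02, 0.00, 0.02 and 0.06, and replicate 2 had the opposite order, from 0.20 to -0.08. In Ahr+/+ BMMs the medians went from -0.05 to 0.07 at 3 h and from 0.12 to -0.05 at 20 h. I3C, measured against the same DMSO libraries, gave quartile medians of -0.06, 0.01, 0.07 and 0.11 in Ahr-/- BMMs at 3 h. The same quartiles had -0.08, -0.02, 0.04 and 0.12 with I3C at 20 h. With a correction for GC content, added after the data were seen, the medians at 3 h were 0.06 for glycolysis, 0.07 for NRF2, 0.11 for ribosomal protein genes and -0.13 for mitochondrially encoded genes. The median of interferon-stimulated genes was -0.12 with and without it, and that of processed pseudogenes was -0.21. Read pairs assigned to no gene took 4.62% to 5.16% of BaP libraries and 4.97% to 5.92% of DMSO libraries at 3 h, again lower in 4 of 4 pairs.

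**Figure D4:**
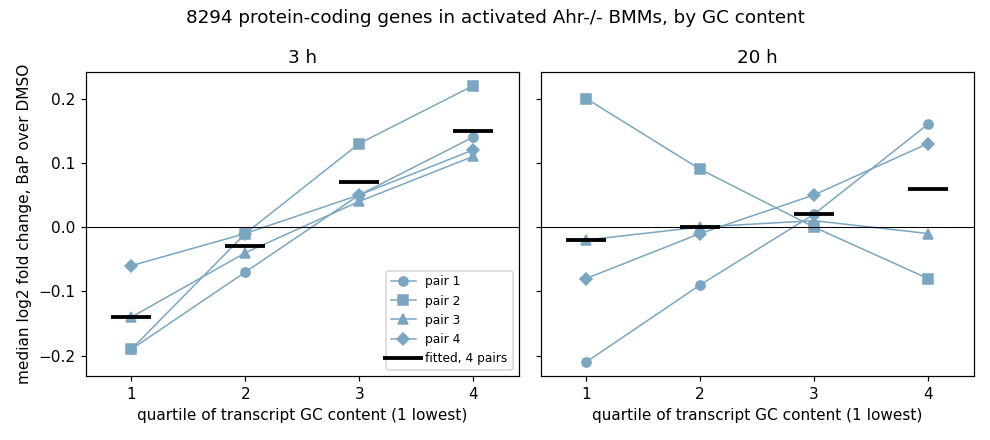
Median log2 fold change (BaP over DMSO, vertical axis) of 8294 protein-coding genes in quartiles of transcript GC content, for each pair of Ahr-/- libraries and for the fit over 4 pairs (bars), at 3 h and 20 h. At 3 h all pairs climb from the lowest to the highest quartile, and at 20 h replicate 2 runs from 0.20 to -0.08.

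The effect of BaP at 20 h was tested against that at 3 h. No gene (0.0%) differed by edgeR, where the lowest adjusted p was 0.893 and 697 genes (4.79%) had an unadjusted p under 0.05, and none by DESeq2. Herpud1 had a difference of -0.53 ± 0.14 on the log2 scale with an unadjusted p of 0.000494. For Gbp9, Tufm and Ifi214 the differences were 0.38, -0.24 and 0.51, each with an adjusted p of 0.893 (edgeR). A call at 3 h and none at 20 h is thus not shown to be a difference between the times. Of 1569 genes higher at 3 h at an unadjusted p under 0.05, 82.3% had positive values at 20 h with a median of 0.06, and of 1172 lower genes 28.3% did with a median of -0.05, where 52.4% of all genes had positive values at 20 h. The libraries of the 2 times are separate, while the methods give 4 mice per genotype for both. Sample identifiers of the Ahr-/- BaP and DMSO libraries carry 1 prefix at 3 h and another at 20 h. Time and this unexplained prefix cannot be told apart.

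The response was also tested against that of Ahr+/+ BMMs as a difference between genotypes. At 3 h, 4 genes (0.0275%) differed by edgeR, all with the higher value in Ahr+/+ BMMs, and 800 (5.5%) had an unadjusted p under 0.05. They were Ahrr (difference 3.69 ± 0.58, adjusted p = 0.0012), Ggta1 (0.67 ± 0.11, adjusted p = 0.00157), P2ry14 (0.63 ± 0.12) and Arl4c (0.96 ± 0.18, both adjusted p = 0.00981). In Ahr-/- BMMs, the log2 FC was -0.03 for the galactosyltransferase gene Ggta1 and 0.13 for Arl4c, an Arf-like GTPase. P2ry14, a receptor for UDP-sugars, had -0.26 in Ahr-/- and 0.37 in Ahr+/+ BMMs, and it held 31.8, 27.2, 29.5 and 33.6 CPM with DMSO and 25.6, 19.4, 28.9 and 28.8 CPM with BaP in Ahr-/- libraries. The number called fell to 2 without the replicate block and to 2 without the Ahr+/+ BaP library of replicate 4, and to 0 without Ahr-/- replicate 2, with 609 genes at an unadjusted p under 0.05.

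The promoter of Ahrr is printed because Ahrr had the largest difference between the genotypes. From 250 bases before to 50 bases after the start (RefSeq, GRCm38.p6, chr13:74292282-74292581, minus strand), it holds the AhR core motif GCGTG 3 times on the printed strand, in capitals.
Ahrr: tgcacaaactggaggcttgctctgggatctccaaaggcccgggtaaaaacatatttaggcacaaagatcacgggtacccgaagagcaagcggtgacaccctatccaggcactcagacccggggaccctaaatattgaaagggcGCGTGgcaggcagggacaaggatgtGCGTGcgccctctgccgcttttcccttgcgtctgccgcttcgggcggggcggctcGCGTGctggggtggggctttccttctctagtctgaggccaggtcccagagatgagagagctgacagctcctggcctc
GCGTG was searched on both strands, and 10639 of 32851 promoters of this length (32.4%) hold it. That of Arl4c had 2 matches, that of Tufm 1, and those of Ggta1 and Ifi214 0. Of the 4 P2ry14 promoters in the table, 1 had a match.

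At 20 h, 96 genes (0.66%) differed between the genotypes, 42 (0.289%) with the higher and 54 (0.371%) with the lower value in Ahr+/+ BMMs, and 2062 (14.2%) had an unadjusted p under 0.05. All 96 were called in Ahr+/+ BMMs, where the medians were 0.68 and -0.44, against -0.06 and 0.05 in Ahr-/- BMMs. In Ahr-/- BMMs edgeR and DESeq2 called 0 of the 96. There 3 and 4 of the 42 and 54 had an unadjusted p under 0.05, where 3.47% of all genes did. Libraries of both genotypes entered the choice of the 96, so the small values in Ahr-/- BMMs were partly fixed by it. Mmp8, a neutrophil collagenase also made by macrophages, held 1.2, 0.637, 0.699 and 0.957 CPM with DMSO and 0.719, 0.827, 0.637 and 0.69 CPM with BaP in Ahr-/- BMMs at 20 h. In Ahr+/+ BMMs it went from 8.09, 12.8, 9.65 and 5.41 CPM to 25.6, 31.6, 31.0 and 21.4 CPM, a difference between the effects of 1.95 ± 0.23. The levels of Mmp8 already differed between the genotypes with DMSO. At 20 h the sample identifiers of the Ahr-/- libraries carry a different prefix from those of the activated Ahr+/+ libraries. The labels do not explain the prefix, and genotype and prefix cannot be told apart at that time. Emp1, a membrane protein gene, differed by 1.5 ± 0.20, Mxd1, a Myc antagonist, by 1.06 ± 0.15, Ly6a by 1.09 ± 0.16, Rcbtb2 by 0.77 ± 0.11 and Ggta1 by 0.73 ± 0.11. Serpinb2 differed by 2.17 ± 0.28, with no counts in Ahr-/- replicates 3 and 4. Spn, the sialophorin CD43, differed by -0.81 ± 0.11, Apex1, a base excision repair enzyme, by -0.62 ± 0.09, and the ribosomal protein gene Rpl3 by -0.47 ± 0.07. Without the replicate block 0 of these differences were called, with 679 genes at an unadjusted p under 0.05, and with a replicate left out 24 to 140.

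**Figure D5:**
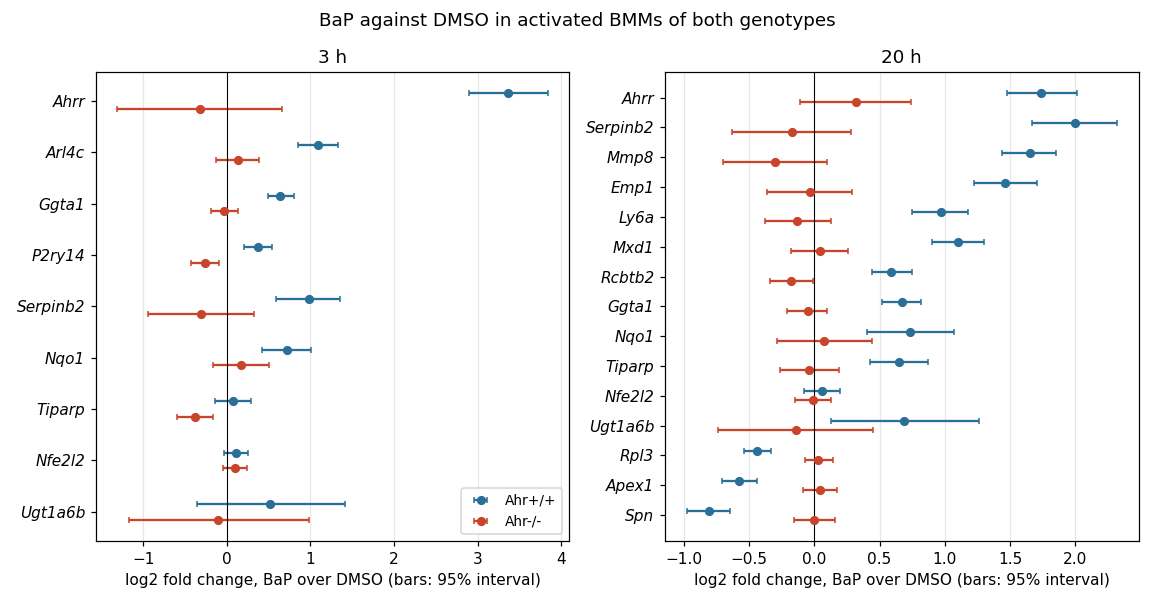
Log2 fold change (BaP over DMSO, horizontal axis) with 95% intervals in activated Ahr+/+ and Ahr-/- BMMs at 3 h and 20 h. Plotted are genes called between the genotypes and AhR targets. Of the targets tested, Ugt1a6a and Scin, which had low counts, are not plotted. Ahrr lies at 3.37 and 1.74 in Ahr+/+ BMMs and at -0.32 and 0.32 in Ahr-/- BMMs, where its intervals span 0.

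Genes that BaP changed in Ahr+/+ BMMs were described in Ahr-/- BMMs, whose libraries did not enter that contrast but shared the model and the filter. The 22 genes (0.151%) called at 3 h, all higher, had a median of 0.80 in Ahr+/+ and 0.11 in Ahr-/- BMMs, with 15 positive values. There edgeR and DESeq2 called 0, and 3 had an unadjusted p under 0.05, where 18.9% of all genes did. The 307 genes (2.11%) that rose at 20 h had a median of 0.45 against 0.00 in Ahr-/- BMMs, where 0 were called by either tool and 8 had an unadjusted p under 0.05. The 312 (2.15%) that fell had -0.36 against 0.01, with 4 called by edgeR, 8 by DESeq2 and 39 at an unadjusted p under 0.05, where 3.47% of all genes were. The 4 were pseudogenes of the 14 above. The study singled out 29 genes from these same libraries, among them Il1b, Il10, Mmp8 and Iigp1. In Ahr-/- BMMs the 29 had medians of 0.02 at 3 h and 0.01 at 20 h, with 0 called by either tool. Apart from Il1b and Il10, the study chose them as changed in Ahr+/+ or Ahr-/- BMMs but not in both. The lack of calls in Ahr-/- BMMs was thus partly fixed by that choice. In the study, Gsta3, Slpi and Igf1r passed for I3C only. Of the 29, 4 at 3 h and 0 at 20 h had an unadjusted p under 0.05, where 18.9% and 3.47% of all genes did.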

How the data were processed

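RNA sequencing was performed on polyadenylated RNA of 64 BMM libraries, stranded, paired-end and pooled on 1 flow cell. The deposited files hold raw counts per gene, which the authors made by adapter removal, alignment with HISAT2 2.1.0 to the mouse genome (mm10) and counting with HTSeq 0.9.1 over exons in intersection-strict mode with reverse strand. The authors' variance-stabilised table was not used here. HTSeq's special entries were left out of library sizes, and their shares are given where used.

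Counts of all 64 libraries, 16 groups, were analysed with edgeR 4.0.16 in R 4.3.3: TMM normalisation, a filter on low counts (minimum count 10, leaving 14537 of 55487 genes), the quasi-likelihood test with group means and the replicate number as a block within genotype and time, and Benjamini-Hochberg adjustment over all genes tested, with a threshold of 0.01. A prior count of 2 was used for log2 CPM, from which the differences within pairs were taken. It was not used for the fitted log2 fold changes, which kept edgeR's default. Errors are SE derived from the log2 fold change and the F statistic of the fit to all 64 libraries, and intervals are 95%. The SE is not the spread of the n = 4 pairs, and it is unstable where the log2 fold change is near 0. The same model tested the differences between times and between genotypes. CPM values of genes are TMM-normalised, and those of marker lists are sums of counts scaled to the library total. The methods give 4 mice per genotype, and in Ahr-/- BMMs the deviations of same-numbered libraries from their group means correlated at 0.324 to 0.412 at 3 h and 0.331 to 0.597 at 20 h, so the numbers were taken as pairs. The highest correlation with another number was 0.277 to 0.374 and 0.306 to 0.579, and 7 of 8 correlated best with their own number, replicate 3 at 20 h being the exception (0.562 against 0.579). In Ahr+/+ BMMs the correlations were 0.0668 to 0.23. The fit was tested on simulated data for BaP in Ahr-/- BMMs at 3 h, over 14537 genes. Of 100 genes changed 1.5-fold 62 were called, and of 100 changed 2-fold 73. There were 0 in the wrong direction and 2 calls among unchanged genes. The simulation gave the unchanged genes no BaP effect and held no shift with GC content, unlike the data. These rates thus describe a simpler setting. DESeq2 1.42.0 was an alternative. Other alternatives were size factors, no filter, other blocks and library sets, leaving out replicates and, added after seeing the data, a GC correction, protein-coding genes only and leaving out 1 Ahr+/+ library.

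Positions, gene types and GC content were taken from GENCODE M21 on GRCm38, which holds 14535 of the tested genes, while the authors counted on M22. Pseudogenes were matched to coding transcripts with blastn 2.17.0.

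Named were all called genes, the next genes by p at 20 h, AhR targets and study genes, genes called between genotypes (the 10 of lowest p at 20 h) and up to 3 members of each list by p. Il10 is a study gene. The comparison, lists and named genes were chosen with earlier results of these data known. Replicates are separate mice by the methods. Depth ranged from 17772548 to 50644601 counts in the 16 libraries. 1 called pseudogene is counted in the totals and not reported here by itself.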

Additional observations from a re-analysis of the deposited data

Results flagged for a closer look

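Of 168 groups of 4 libraries examined for 1 value far from the other 3, 12 were found, where chance gives about 1 in 20. In Ahr-/- BMMs at 3 h, Gm10029 held 0.0492 CPM in BaP replicate 2 against 0.269 to 0.285 in the others, and Gm9512 held 23.6 CPM in DMSO replicate 2 against 12.8 to 13.5. AC166779.2 held 0.484 CPM in BaP replicate 3. The same DMSO replicate 2 had 0.505% of its counts on processed pseudogenes against 0.408% to 0.415%, and DMSO replicate 1 had 5.92% of read pairs assigned to no gene against 4.97% to 5.13%.

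In Ahr+/+ BMMs at 3 h, BaP replicate 4 held 1.85 CPM of Gm10029 and 1.78 CPM of AC166779.2. DMSO replicate 3 held 8.31 CPM of Gm9512, 1.18 CPM of AC166779.2 and 0.346 CPM of Rpl7a-ps14. At 20 h, BaP replicate 1 held 2.86 CPM of Gm9512 and DMSO replicate 1 held 1.03 CPM of Gm5491.

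The effect of BaP differed between the genotypes by the test of the difference itself (edgeR) for 4 genes at 3 h and 96 at 20 h. As Ahr+/+ minus Ahr-/-, the differences on the log2 scale at 3 h were 3.69 for Ahrr, 0.96 for Arl4c, 0.67 for Ggta1 and 0.63 for P2ry14. At 20 h those of lowest p were 1.95 for Mmp8, 1.5 for Emp1, 2.17 for Serpinb2, 1.06 for Mxd1, -0.81 for Spn, 0.73 for Ggta1, 0.77 for Rcbtb2, 1.09 for Ly6a, -0.62 for Apex1 and -0.47 for Rpl3.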

How the results depend on the processing

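No called gene changed direction under an alternative. Values that were not called did, among them medians near 0: with the GC correction at 3 h, that of antigen presentation genes went from 0.07 to -0.01, of immediate early genes from 0.04 to -0.03, of protein-coding genes from 0.02 to -0.01 and of all genes from 0.01 to -0.01. The counts of called genes moved most. For BaP in Ahr-/- BMMs, 16 at 3 h and 5 at 20 h became 62 and 17 at a threshold of 0.05, 37 and 13 with DESeq2, 259 and 66 without the filter on low counts (27360 genes) and 1 and 0 over protein-coding genes only, with 2283 and 261 at an unadjusted p under 0.05. At 3 h, 9 were called from the Ahr-/- libraries alone and 6 with a block shared by both times. At 20 h, 9 were called with DESeq2 on Ahr-/- libraries without the block, 9 with the GC correction and the block, and 3 from BaP and DMSO libraries only. Without the replicate block 4 and 2 were called. Leaving out a replicate gave 0 to 6 at 3 h and 0 to 7 at 20 h. Gm5388 and Gm9512 passed at 3 h in 13 of 14 settings each, with log2 FC from -3.26 to -2.70 and from -2.54 to -2.28. For the difference between times, 8 instead of 0 were called without the filter. For the genotypes at 3 h, 4 became 2 with the GC correction, 2 with the shared block, 2 without the block, 28 without the filter and 2 over protein-coding genes, and 0 to 2 without a replicate. At 20 h, 96 became 297 at 0.05, 228 with DESeq2, 170 with the GC correction, 26 with the shared block, 0 without the block, 277 without the filter and 24 to 140 without a replicate. At these depths low pseudogenes rest on few counts. Why the counts moved was not tested.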
